A study of Mus musculus with 6 samples.

Results

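Endosomal sorting is the step at which proteins taken up from the cell surface, or made for the endosome, are sent back to the membrane, to the Golgi, or on to the lysosome. It was followed here through the transcripts of the vacuolar protein sorting (Vps) genes, the charged multivesicular body (Chmp) genes and the sorting nexins (Snx), with Hgs, Stam, Stam2, Tsg101 and Pdcd6ip, as mouse oocytes matured. The genes were chosen by symbol: every array probe set annotated to exactly 1 symbol beginning with Vps and a digit, Chmp, or Snx and a digit, or to 1 of those 5 genes. This gave 71 genes of the 11429 with such a probe set, carried by 124 of 19078 probe sets. Vps18 was not analysed here.

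Sorting relies on protein complexes that act in turn on the endosome. Retromer and its relative retriever, helped by sorting nexins that bind phosphoinositides and bend the membrane, return receptors to the surface or to the Golgi, while the ESCRT complexes gather ubiquitinated receptors and bud them into the lumen for degradation. The tethering complexes CORVET and HOPS then join early endosomes to each other and late endosomes to lysosomes. In oocytes, as in other cells, this traffic decides the fate of surface receptors, and ESCRT-III also acts in membrane scission and in sealing the nuclear envelope.

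The 6 samples were oocytes from mice of 22 to 24 days, in 2 groups of 3 that the design text calls biological replicates, each of 300 oocytes and read on 1 array. MII oocytes, arrested in the second meiotic metaphase, were taken from the oviducts of mice primed with 5 IU of eCG, which makes follicles grow, and then given 5 IU of hCG, which sets off ovulation, 14 h before collection. They were freed of cumulus cells with hyaluronidase and kept if a first polar body was visible. GV oocytes, fully grown and held in meiotic prophase with an intact germinal vesicle, came from large antral follicles of mice given 5 IU of eCG alone, 44 to 46 h earlier, and were freed of cumulus cells by pipetting in medium with 5 µM milrinone, an inhibitor of the phosphodiesterase PDE3 that blocks meiotic resumption. The 2 groups thus differed in hormone treatment, in place of collection and in the way cumulus cells were taken off as well as in stage, and these cannot be told apart. Values are on the log2 scale, differences are MII minus GV, and a gene was called where limma's Benjamini-Hochberg adjusted p over 21646 probe sets was under 0.05. Each gene is given by its brightest probe set, the one with the highest mean over the 6 arrays.

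Arrays of one stage correlated at 0.988 to 0.991 over probe sets, and arrays of different stages at 0.885 to 0.906. All 10 oocyte markers measured lay above the median, 4 of them lower and 1 higher in MII oocytes, and the log2 of their summed level was 14.71 to 14.76 in MII arrays and 15.06 to 15.12 in GV arrays. Of 6 cumulus and granulosa markers measured, 1 lay above the median, 2 were lower in MII oocytes and the log2 summed level was 7.49 to 7.57 in MII and 8.05 to 8.17 in GV arrays. Their part in the results below was not tested. The 3 cumulus expansion markers measured lay below the median, with none called. The median array value was 5.47 to 5.49 in MII and 6.10 to 6.12 in GV arrays, so results are also given under 4 other scalings. Relative to the values as deposited, these shifted the median difference by 0.62 (array medians made equal), 0.34 (quantile normalization), -0.40 (hybridization controls made equal) and -0.87 (poly-A controls made equal). The mean of the hybridization controls had an SD of 0.50 over GV arrays and 0.22 over MII arrays. For the poly-A controls the SDs were 0.24 and 0.15. Making controls equal carries this spread into the values, so a call can be lost there through a wider SE as well as through the shift. The part of each was not tested.

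Of the 71 genes, 31 were lower (43.7%, against 37.8% of all genes) and 10 were higher (14.1%, against 10.5%) in MII oocytes. The median difference was -0.29 for the 71 genes and -0.20 for all genes. Falls of 2-fold or more were called for 21 members (29.6%, against 23.1% of all genes), and falls of 4-fold or more for 9 (12.7%, against 9.84%). The 2 stages did not overlap for 45 members (63.4%, against 57.9% of all genes). A rise of 2-fold or more was called for 1 member, Vps16 (1.41%, against 1.29% of all genes). These shares lay near those of all genes. In bulk samples, fewer molecules of a transcript per oocyte and a change in the total RNA they are measured against cannot be told apart.

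The members are described in 5 groups of 6 to 25 genes, whose counts were not tested against each other and stand beside 10.5% higher and 37.8% lower over all genes. The HOPS and CORVET group, which also takes in the paralog Vps33b, had 5 of 7 genes higher and 2 lower, with a median of 0.63 that turned to -0.24 with poly-A controls made equal. That count rests on the brightest probe sets: over all 13 probe sets of the group, 5 were higher and 5 lower, with a median of 0.03. Without GV replicate 2, MII replicate 2 or MII replicate 3, 3 of the 7 genes were higher, and without Vps33b the count was 4 of 6. Retromer and retriever had 1 of 6 higher and 3 lower (median -0.86), and the remaining Vps genes 2 of 12 higher and 7 lower (median -0.71), with medians below 0 in all 5 scalings. ESCRT had 1 of 21 higher and 11 lower, with a median of -0.50 that turned to 0.12 with array medians made equal. The sorting nexins had 1 of 25 higher and 8 lower, with a median of -0.23 that turned to 0.39 with array medians made equal and 0.17 after quantile normalization.

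Of the 4 other scalings, 3 move every gene by one amount, so which differences change sign follows from their size and that shift. Of the 31 genes that fell, 28 kept a difference below 0 in all 5 scalings, the exceptions being Vps37b, Vps4b and Vps54, and 20 were called lower in all 5 (28.2%, against 22.2% of all genes). The calls of Hgs, Stam, Vps37b, Chmp7, Vps4b, Snx1, Snx6, Vps51, Vps52 and Vps54 were lost both with array medians made equal and after quantile normalization, and that of Chmp1a after quantile normalization alone. Of the 10 genes that rose, Vps16 alone kept a difference above 0 in all 5 scalings. With array medians made equal, 31 members were higher and 21 lower (all genes 52.2% and 22.5%). After quantile normalization 25 were higher and 20 lower (all genes 34.5% and 24.5%). With hybridization controls made equal 0 were higher and 31 lower (all genes 0.437% and 36.7%), and with poly-A controls made equal 0 were higher and 60 lower (all genes 0.271% and 86.5%). In those limma fits, 1 and 0 members were higher at an unadjusted p under 0.05. Leaving out each array in turn left 28 of the 31 falls and 4 of the 10 rises called throughout. On the scale as deposited, all 30 genes that were not called had a 95% interval of the difference within 1 log2 unit of 0, that is, within 2-fold in either direction. This did not hold in every scaling. With poly-A controls made equal, some of them were called lower by more than 2-fold, among them Snx27 (-1.26), Snx19 (-1.25) and Chmp1b (-1.25).

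**Figure D1:**
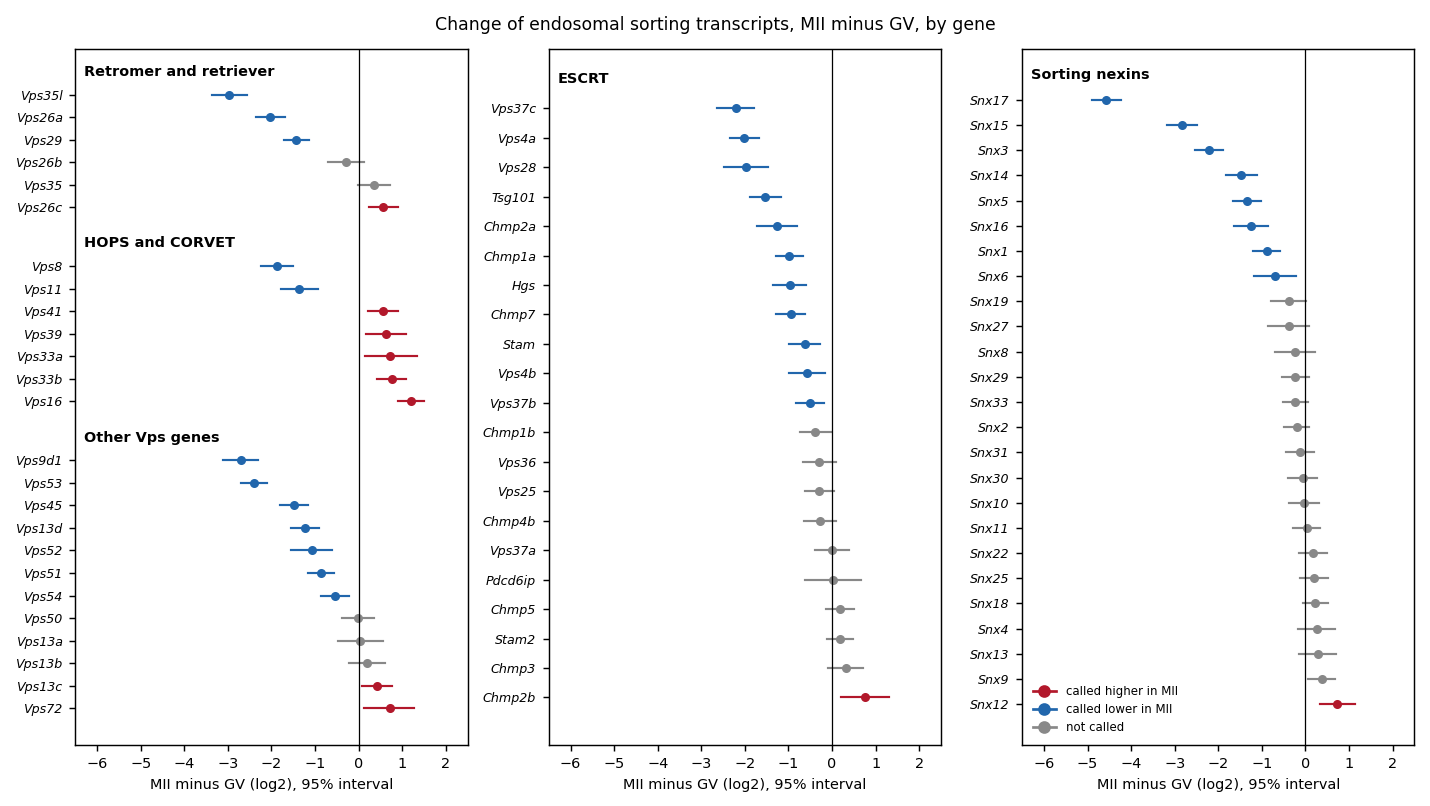
Log2 difference, MII minus GV, of each of the 71 genes with its 95% interval from the limma fit, in 5 groups. Colours mark genes called higher, lower or not called on the scale as deposited. HOPS and CORVET, here with Vps33b, is the only group of the 5 with most genes right of 0 on this scale, and Snx17 lies farthest left at -4.57. With poly-A controls made equal, 1 of the 7 HOPS and CORVET genes stayed above 0.

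In retromer, 2 subunits that bind the scaffold were lower and the scaffold itself was not called. Vps35, the scaffold on which the complex is built, had values of 9.40, 9.32 and 9.84 in MII arrays, against 9.14, 9.24 and 9.12 in GV arrays. All MII values lay above all GV values, but the difference of 0.35 ± 0.16 (SE, 3 arrays per stage) did not pass the test, with an adjusted p of 0.11 by limma. Vps26a, an arrestin-like subunit that helps to bind cargo and nexins, had 8.21, 8.21 and 8.44 in MII arrays, against 10.20, 10.51 and 10.24 in GV arrays. Vps29, the subunit at the other end of the scaffold, which recruits regulators, had 7.29, 7.44 and 7.40 in MII arrays, against 8.76, 8.86 and 8.80 in GV arrays. Neither gene's groups overlapped: Vps26a fell 4.09-fold (-2.03 ± 0.15, adjusted p = 1.8e-06 by limma) and Vps29 fell 2.70-fold (-1.43 ± 0.13, adjusted p = 8.0e-06 by limma). Vps26b, the paralog of Vps26a, lay below the median of every array at both stages and was not called, at -0.29 ± 0.19. Its call moved to lower, at -0.49, without GV replicate 3. The other Vps26b probe set, also below every array median, was called lower at -0.57. Averaged over its probe sets, Vps26b was called lower at -0.43. The 1 probe set of Vps26a and the brightest of Vps29 are of kinds marked as possibly shared with other transcripts, of the same gene or of others. The other Vps29 probe sets differed by -1.0 (called lower) and 0.09 (not called).

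Retriever shares Vps29 with retromer and has its own scaffold and arrestin-like subunit, which were called in opposite directions. Vps35l, the scaffold, had 6.47, 6.70 and 6.06 in MII arrays, against 9.44, 9.45 and 9.26 in GV arrays. It fell 7.84-fold with no overlap (-2.97 ± 0.18, adjusted p = 4.6e-07 by limma). Its dimmer probe sets, below every array median, gave -0.84, called lower, and 0.39, not called, and the change of the brightest minus that of the last was -3.36 (adjusted p = 4.6e-05 by limma). Vps26c, the arrestin-like subunit, had 7.39, 7.82 and 7.56 in MII arrays, against 7.10, 6.99 and 6.98 in GV arrays. It rose 1.48-fold with no overlap (0.57 ± 0.15, adjusted p = 0.011 by limma), a call lost under both control scalings, with a difference of -0.30 for poly-A controls.

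The changes of partners were also set side by side within each array, as the change of one gene minus that of the other, in which any shift of a whole array cancels. These pairs were chosen after the values were seen, so the differences are a description with no test. Relative to Vps35, the change of Vps26a was -2.39 ± 0.17, that of Vps29 -1.79 ± 0.19 and that of Vps35l -3.32 ± 0.28 (log2, SE from the limma fit). For Vps26b and Vps26c the 95% intervals of the difference from Vps35 were -1.20 to -0.09 and -0.30 to 0.73. Probe sets of one and the same gene also differed often, as given below, and those of Vps29 ranged from -1.43 to 0.09.

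HOPS and CORVET share a core of Vps11, Vps16, Vps18 and Vps33a, to which HOPS adds Vps39 and Vps41 and CORVET adds Vps8 and the product of Tgfbrap1. Vps16, a core subunit that holds Vps33a, was read by 1 probe set, of a kind marked as possibly shared with other transcripts, of the same gene or of others. It had 8.39, 8.55 and 8.35 in MII arrays, against 7.29, 7.10 and 7.26 in GV arrays. It rose 2.32-fold with no overlap (1.21 ± 0.14, adjusted p = 4.0e-05 by limma), and its difference lay between 0.34 and 1.84 over the 5 scalings. Vps33a, the Sec1/Munc18-type subunit that guides SNARE assembly, had 5.67, 6.46 and 5.83 in MII arrays, against 4.74, 5.32 and 5.70 in GV arrays. The groups overlapped, and its rise of 0.73 ± 0.27 (adjusted p = 0.047 by limma) was lost on leaving out any of 4 arrays, with adjusted p of 0.15 without GV replicate 1, 0.094 without GV replicate 2, 0.17 without MII replicate 2 and 0.064 without MII replicate 3. Averaged over its probe sets, Vps33a differed by -0.27.

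The HOPS subunits Vps39 and Vps41 were higher in MII oocytes on the scale as deposited and turned to -0.24 and -0.32 with poly-A controls made equal, whereas the CORVET subunit Vps8 was lower in all 5 scalings. Vps39, which tethers HOPS to Rab7, had 9.75, 9.58 and 9.13 in MII arrays, against 9.21, 8.63 and 8.72 in GV arrays. The groups overlapped at 1 array each, and the rise of 0.63 ± 0.21 (adjusted p = 0.030 by limma) was lost without MII replicate 1 (0.10), MII replicate 2 (0.087), GV replicate 2 (0.11) or GV replicate 3 (0.091), each an adjusted p from the same limma fit. Vps41, at the other end of HOPS, had 7.90, 7.81 and 8.24 in MII arrays, against 7.52, 7.35 and 7.41 in GV arrays. Its groups did not overlap and its rise was 0.56 ± 0.15 (adjusted p = 0.014 by limma), lost without MII replicate 3 (adjusted p = 0.057 by limma) and with its brightest probe set of a kind that carries no mark of shared sequence (0.03). Vps8, which gives CORVET its link to Rab5, had 5.95, 5.56 and 5.61 in MII arrays, against 7.65, 7.73 and 7.36 in GV arrays. It fell 3.67-fold with no overlap (-1.87 ± 0.16, adjusted p = 6.2e-06 by limma), whereas Tgfbrap1, the other CORVET gene, showed a difference of 0.00 and was not called.

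Vps11, a core subunit, had 5.12, 4.71 and 5.48 in MII arrays, against 6.43, 6.57 and 6.38 in GV arrays. The groups did not overlap and the MII values lay below the median of their arrays. Since the values carry no measure of background, its fall is given as at least 2.56-fold (-1.36 ± 0.19, adjusted p = 2.2e-04 by limma). Here and below, "at least" marks a point estimate with background unmeasured, on the scale as deposited and not across scalings. It is not a lower confidence limit, and the SE of each estimate leaves room for a smaller fall. Vps33b, the paralog of Vps33a that pairs with the product of Vipas39 outside HOPS, had 9.14, 9.51 and 9.48 in MII arrays, against 8.64, 8.64 and 8.59 in GV arrays. It rose 1.69-fold with no overlap (0.76 ± 0.15, adjusted p = 0.0019 by limma), while its partner Vipas39 fell, at -1.62 ± 0.16 (adjusted p = 1.9e-05 by limma). The Vps33b call was lost under both control scalings, with a difference of -0.12 for poly-A controls. Vipas39 was called lower in all 5 scalings, on a probe set of a kind marked as possibly shared.

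Set beside Vps16 in the same way, as a description with no test, Vps8 and Vps11 lay farthest from it. The change of Vps8 minus that of Vps16 was -3.09 ± 0.22, and that of Vps11 minus Vps16 was -2.57 ± 0.26. Vps41 (-0.66 ± 0.20), Vps39 (-0.58 ± 0.22), Vps33a (-0.48 ± 0.29) and Vps33b (-0.46 ± 0.18) lay nearer. Under array medians made equal and under quantile normalization the group again had 5 genes higher and 2 lower, and under both control scalings 0 higher and 2 lower.

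**Figure D2:**
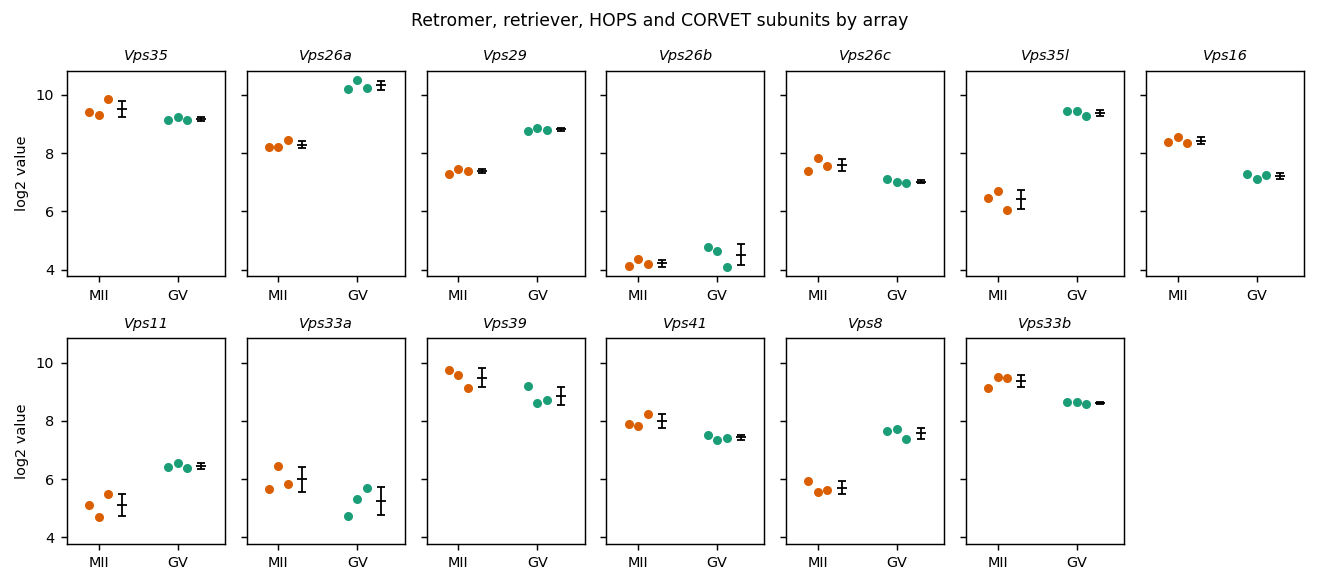
Log2 value of each array for the 13 genes of retromer, retriever, HOPS and CORVET, MII left and GV right, with the mean and SD of the 3 arrays beside the points. Vps26a, Vps29, Vps35l, Vps8 and Vps11 have every MII point below every GV point, and Vps16 has every MII point above, at 8.35 to 8.55 against 7.10 to 7.29.

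The ESCRT genes act in sequence, and their calls are given in that order. In ESCRT-0, which captures ubiquitinated receptors, 2 of 3 genes were lower on the scale as deposited, and 0 of 3 with array medians made equal or after quantile normalization, where Stam2 was higher. Hgs, its lipid- and ubiquitin-binding subunit, had 7.71, 7.65 and 7.96 in MII arrays, against 9.03, 8.65 and 8.54 in GV arrays. It fell 1.96-fold with no overlap (-0.97 ± 0.17, adjusted p = 9.0e-04 by limma), against -0.35 and -0.39, not called, in those 2 scalings. Of its alternative partners, Stam was lower at -0.63 ± 0.16, with all its values below the array medians, and Stam2 was not called, at 0.19 ± 0.14. In the same 2 scalings Stam was at -0.01 and -0.16, not called.

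In ESCRT-I, the complex that links cargo to the budding machinery, 4 of 5 genes were lower on the scale as deposited. With array medians made equal and after quantile normalization, Tsg101, Vps28 and Vps37c stayed lower. In those 2 scalings Vps37b was not called (0.12 and 0.17) and Vps37a was higher (0.62 and 0.66). Tsg101, its ubiquitin-binding subunit, had 7.57, 7.63 and 8.05 in MII arrays, against 9.18, 9.41 and 9.26 in GV arrays. Vps28, which connects ESCRT-I to ESCRT-II, had 4.52, 5.27 and 5.36 in MII arrays, against 7.08, 7.21 and 6.77 in GV arrays. Vps37c, 1 of several interchangeable Vps37 subunits, had 6.60, 6.68 and 6.37 in MII arrays, against 9.11, 8.75 and 8.42 in GV arrays. None of the 3 had overlapping groups: Tsg101 fell 2.88-fold (-1.53 ± 0.16, adjusted p = 2.8e-05 by limma), Vps28 at least 3.91-fold (-1.97 ± 0.23, adjusted p = 5.0e-05 by limma) and Vps37c 4.62-fold (-2.21 ± 0.19, adjusted p = 5.2e-06 by limma). The probe sets of Vps37c are of a kind marked as possibly shared with other transcripts, of the same gene or of others. Its paralog Vps37b fell by 0.50 on the log2 scale, a call lost without GV replicate 2 (adjusted p = 0.070 by limma) or MII replicate 1 (0.061).

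Vps37a had probe sets called in opposite directions. Its brightest had 6.72, 6.61 and 6.34 in MII arrays, against 6.85, 6.41 and 6.42 in GV arrays, overlapping and not called at -0.01 ± 0.17. Another had 6.44, 6.37 and 5.79 in MII arrays, against 5.79, 4.92 and 5.62 in GV arrays, and was called higher at 0.75 although the groups met at 5.79. The remaining one had 4.72, 5.00 and 5.03 in MII arrays, against 5.77, 5.47 and 5.82 in GV arrays, with no overlap, and was called lower at -0.77.

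The ESCRT-II genes, which carry the signal on to ESCRT-III, showed no call. Vps25 had 2.34, 2.00 and 2.24 in MII arrays, against 2.31, 2.58 and 2.57 in GV arrays. Vps36 had 5.03, 5.41 and 5.11 in MII arrays, against 5.26, 5.71 and 5.46 in GV arrays. Both overlapped between stages, at -0.29 ± 0.15 and -0.30 ± 0.17, and both lay below the median of every array. At an unadjusted p under 0.05 by limma, 0 of the 2 would be called. The ESCRT-II partner Snf8, which lies outside the symbol rule, had 4.47, 3.99 and 4.46 in MII arrays, against 6.91, 7.33 and 7.11 in GV arrays, and fell at least 7.0-fold (-2.81 ± 0.18, adjusted p = 6.7e-07 by limma).

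The 8 ESCRT-III genes, whose products polymerise into the filaments that cut the membrane neck, had 3 falls, 1 rise and 4 without a call. Chmp2a, a late-acting subunit that recruits Vps4, had 6.50, 5.76 and 5.91 in MII arrays, against 7.13, 7.54 and 7.29 in GV arrays, a 2.40-fold fall with no overlap (-1.26 ± 0.20, adjusted p = 5.8e-04 by limma). Its paralog Chmp2b had 8.48, 7.98 and 7.77 in MII arrays, against 7.63, 6.81 and 7.53 in GV arrays. Chmp2b rose by 0.75 ± 0.25 with no overlap (adjusted p = 0.031 by limma), but not without GV replicate 2 (adjusted p = 0.11 by limma), MII replicate 1 (0.11) or MII replicate 2 (0.055), and not averaged over its probe sets (0.28).

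Chmp3, the partner of Chmp2a in the filament, had 7.59, 7.24 and 7.40 in MII arrays, against 7.11, 6.81 and 7.39 in GV arrays. Chmp4b, the main filament-forming subunit, had 5.88, 6.06 and 6.01 in MII arrays, against 6.04, 6.55 and 6.20 in GV arrays. Both overlapped between stages and neither was called, at 0.31 ± 0.18 and -0.28 ± 0.16, though Chmp4b was called lower at -0.59 when its probe sets were averaged. The other falls were Chmp1a (-0.98) and Chmp7 (-0.95), which is known for its part in sealing the nuclear envelope, while Chmp1b (-0.38) and Chmp5 (0.18) were not called. Without GV replicate 1, Chmp1b was called lower at -0.48.

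Vps4a and Vps4b encode the ATPases that take ESCRT-III filaments apart. Vps4a had 7.20, 7.17 and 7.30 in MII arrays, against 9.40, 9.32 and 8.97 in GV arrays. Vps4b had 9.26, 8.56 and 8.74 in MII arrays, against 9.44, 9.33 and 9.50 in GV arrays. Neither gene's groups overlapped: Vps4a fell 4.02-fold (-2.01 ± 0.15, adjusted p = 2.3e-06 by limma) and Vps4b fell 1.48-fold (-0.57 ± 0.18, adjusted p = 0.030 by limma). The Vps4b call was lost on leaving out any array other than MII replicate 1, with adjusted p by limma of 0.054 to 0.11. Whether the 2 changes differed from each other was not tested.

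Pdcd6ip encodes Alix, which brings ESCRT-III to cargo and to sites of membrane repair without ESCRT-I. Its brightest probe set had 7.07, 6.25 and 7.03 in MII arrays, against 6.59, 6.34 and 7.37 in GV arrays, overlapping and not called at 0.02 ± 0.29. Of its other 4 probe sets, 2 were called higher, at 0.45 and 0.64, and 1 was called lower, at -0.89, with values of 5.84, 5.87 and 6.03 in MII arrays, against 6.82, 6.68 and 6.90 in GV arrays. No single direction can be given for this gene.

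**Figure D3:**
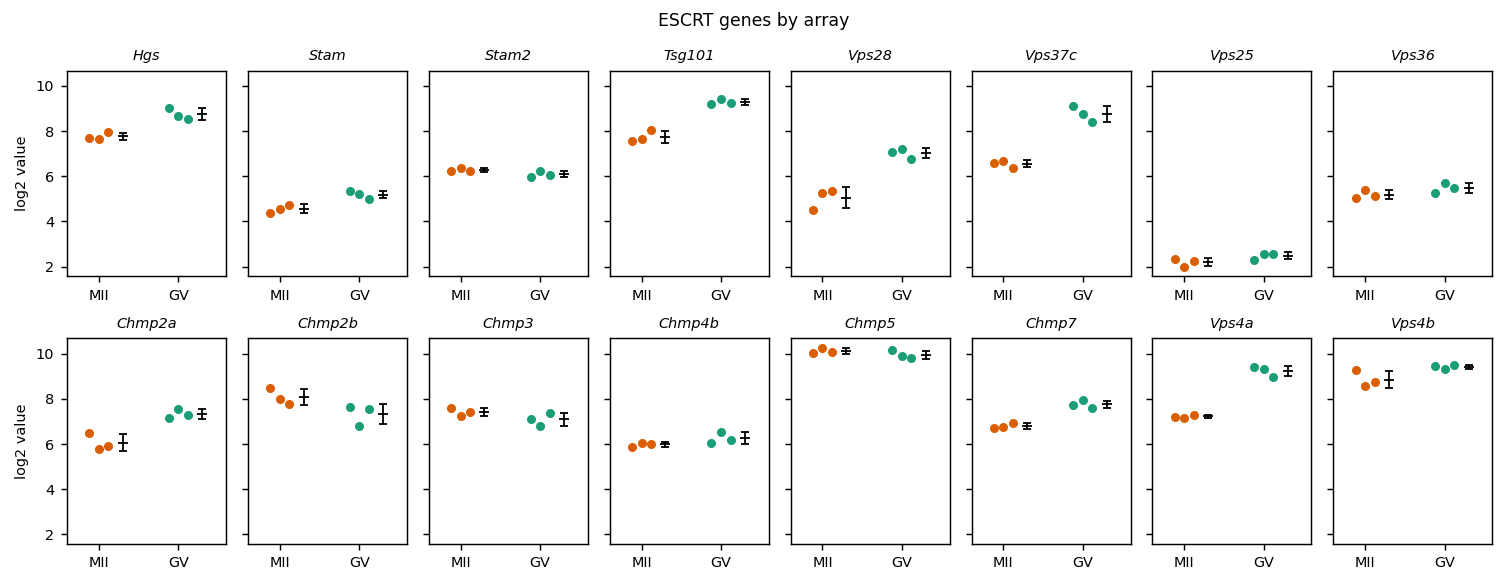
Log2 value of each array for 16 ESCRT genes, MII left and GV right, with the mean and SD of the 3 arrays beside the points. Tsg101, Vps28, Vps37c and Vps4a differ by -2.21 to -1.53 with no overlap, whereas the points of Stam2, Vps36, Chmp3, Chmp4b and Chmp5 overlap between the stages.

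The sorting nexins share a domain that binds phosphoinositides, and the steepest fall of all 71 genes was among them. Snx17, which recognises receptors such as integrins through a FERM domain and passes them to retriever, had 6.23, 6.39 and 6.15 in MII arrays, against 10.64, 11.02 and 10.83 in GV arrays. Its 1 probe set is of the kind marked as possibly shared. It fell 23.8-fold with no overlap (-4.57 ± 0.15, adjusted p = 2.1e-08 by limma), and by at least 3.95 log2 units in each of the 5 scalings. Snx15 had 3.88, 3.96 and 4.21 in MII arrays, against 6.91, 6.95 and 6.66 in GV arrays, a fall of at least 7.10-fold with no overlap (-2.83 ± 0.15, adjusted p = 2.2e-07 by limma). Snx3, a small nexin that brings retromer to recycling cargo such as the Wnt carrier Wntless, had 7.02, 7.09 and 6.97 in MII arrays, against 9.28, 9.40 and 9.04 in GV arrays. It fell 4.65-fold with no overlap (-2.22 ± 0.14, adjusted p = 8.0e-07 by limma).

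Snx12, the closest relative of Snx3, was the only 1 of the 25 nexins called higher on the scale as deposited. It had 9.05, 9.10 and 8.70 in MII arrays, against 8.52, 8.01 and 8.13 in GV arrays, with no overlap. Its rise of 0.73 ± 0.18 (adjusted p = 0.0072 by limma) was not called under either control scaling, with a difference of -0.14 for poly-A controls. Its probe set is of a kind marked as possibly shared with other transcripts, of the same gene or of others, and its other probe set was not called.

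On the scale as deposited, the nexins with a membrane-bending BAR domain had 3 falls in 10 genes (30%, against 37.8% of all genes). They had 0 rises by limma (1 at an unadjusted p under 0.05). With array medians made equal, Snx5 alone stayed lower. Snx2, Snx4, Snx9, Snx18, Snx30 and Snx33 were then higher, in a scaling where 52.2% of all genes were. After quantile normalization Snx5 was lower, and Snx2, Snx4, Snx9 and Snx18 were higher. Snx1 and Snx2, alternative partners of Snx5 and Snx6 in the coat that works with retromer, differed in their calls as deposited. Snx1 had 5.08, 5.04 and 5.35 in MII arrays, against 6.02, 6.05 and 6.08 in GV arrays, and was lower by at least 1.85-fold with no overlap (-0.89 ± 0.14, adjusted p = 4.5e-04 by limma). Snx2 had 7.57, 7.72 and 7.52 in MII arrays, against 7.82, 7.78 and 7.82 in GV arrays, which did not overlap, but the difference of -0.20 ± 0.13 was not called (adjusted p = 0.25 by limma). That the 2 genes differed from each other was not tested.

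Snx5 had 4.58, 4.34 and 4.62 in MII arrays, against 5.95, 5.78 and 5.84 in GV arrays, lower by at least 2.54-fold with no overlap (-1.35 ± 0.14, adjusted p = 2.3e-05 by limma). Snx6 had 9.54, 8.63 and 9.10 in MII arrays, against 9.70, 9.77 and 9.89 in GV arrays. Snx6 fell by 0.70 ± 0.21 with no overlap (adjusted p = 0.023 by limma), a call lost without GV replicate 2 (0.058), GV replicate 3 (0.069), MII replicate 2 (0.073) or MII replicate 3 (0.052), each an adjusted p. Another Snx6 probe set had 3.55, 3.50 and 3.09 in MII arrays, against 8.93, 8.39 and 8.13 in GV arrays, a fall of at least 34.4-fold (-5.11 ± 0.22). The change of the brightest minus that of this probe set was 4.41 ± 0.32 (adjusted p = 1.1e-05 by limma).

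Among the other BAR nexins, Snx9 and Snx18, which act with dynamin in endocytosis, were not called, at 0.37 ± 0.14 and 0.23 ± 0.13. The groups did not overlap for either gene, and their 95% intervals were 0.06 to 0.68 and -0.06 to 0.51. Without MII replicate 1, Snx9 was called higher at 0.44. Its second probe set, however, was called lower at -0.51, and the second Snx18 probe set was called higher at 0.66. For Snx9, the change of the brightest minus that of the second was 0.88 ± 0.20 (adjusted p = 0.006 by limma). Snx27, the PDZ-domain nexin that links receptors to retromer, had 3.88, 4.74 and 4.58 in MII arrays, against 4.66, 4.83 and 4.86 in GV arrays. The groups overlapped below the array medians and the difference of -0.38 ± 0.21 was not called.

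Of the 4 nexins grouped here as the RGS subfamily, Snx14 was lower by at least 2.78-fold (-1.47 ± 0.16, adjusted p = 2.9e-05 by limma). Its product sits on the endoplasmic reticulum and acts in lipid handling. Snx13 (0.28), Snx19 (-0.38) and Snx25 (0.19) were not called, though Snx19 was called lower at -0.55 without GV replicate 2. Snx16, an endosomal nexin with a coiled coil, had its brightest probe set at 9.78, 9.23 and 9.19 in MII arrays, against 10.64, 10.62 and 10.66 in GV arrays, and was lower at -1.24 ± 0.17 with no overlap. A dimmer Snx16 probe set had 7.05, 7.46 and 6.66 in MII arrays, against 6.54, 5.66 and 6.15 in GV arrays, and was higher at 0.94 ± 0.25, also with no overlap. The change of the brightest minus that of the dimmer one was -2.18 ± 0.30 (adjusted p = 4.3e-04 by limma).

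Among the remaining Vps genes, those of GARP and EARP were lower in 4 of 5 cases on the scale as deposited, with a median of -0.86. GARP tethers vesicles from endosomes at the Golgi, and EARP, which has Vps50 in place of Vps54, acts at recycling endosomes. Vps53, shared by both, had 6.43, 6.29 and 6.39 in MII arrays, against 8.89, 8.76 and 8.66 in GV arrays, and fell 5.28-fold with no overlap (-2.40 ± 0.13, adjusted p = 2.9e-07 by limma). The shared subunits Vps52 (-1.07 ± 0.21) and Vps51 (-0.86 ± 0.13) and the GARP subunit Vps54 (-0.55 ± 0.14) were also lower. A dimmer probe set of Vps51 (0.15) and one of Vps54 were not called, whereas the other dimmer ones of Vps52, Vps53 and Vps54 were lower. With array medians made equal and after quantile normalization, Vps53 alone of the 5 stayed lower: Vps51 (-0.24 and -0.29), Vps52 (-0.45 and -0.47) and Vps54 (0.08 and 0.12) were not called. Vps50 was not called as deposited, at -0.01 ± 0.16, with overlapping groups, and was higher in those 2 scalings (0.61 and 0.46).

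Vps45, the Sec1/Munc18-type protein of endosomal fusion, had 5.59, 5.83 and 5.76 in MII arrays, against 7.25, 7.05 and 7.33 in GV arrays. It fell 2.80-fold with no overlap (-1.48 ± 0.14, adjusted p = 1.3e-05 by limma). Vps9d1, named for a domain that activates Rab5, had 5.21, 5.31 and 5.80 in MII arrays, against 8.20, 8.24 and 8.01 in GV arrays. This brightest probe set fell 6.54-fold with no overlap (-2.71 ± 0.18, adjusted p = 8.2e-07 by limma). Its other probe set had 6.12, 6.61 and 6.63 in MII arrays, against 5.21, 5.81 and 5.67 in GV arrays, and was called higher at 0.89 ± 0.20, so the gene had 2 opposite calls.

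The Vps13 proteins, which carry lipids between membranes, had 1 rise and 1 fall in 4 genes. Vps13d was lower at -1.24 ± 0.14 (adjusted p = 4.7e-05 by limma). Its second probe set was not called, at -0.34, and the change of the brightest minus that of the second was -0.91 (adjusted p = 0.0094 by limma). Vps13c had 3.64, 3.55 and 3.34 in MII arrays, against 3.28, 3.09 and 2.90 in GV arrays. Its groups did not overlap but lay below every array median, and the rise of 0.42 ± 0.15 (adjusted p = 0.047 by limma) was lost without GV replicate 2 (0.10), GV replicate 3 (0.15), MII replicate 1 (0.13) or MII replicate 2 (0.12), each an adjusted p. Vps13a (0.04) and Vps13b (0.19) were not called by their brightest probe sets. Of the 5 Vps13a probe sets, 1 was called lower, at -1.90 ± 0.22, and the others were not called. The second Vps13b probe set was called higher at 0.72. Averaged over probe sets, Vps13a was called lower at -0.40 and Vps13b higher at 0.46.

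Vps72 matched the symbol rule but encodes a histone-binding subunit of chromatin remodelling complexes, not an endosomal protein. It had 7.44, 7.80 and 8.23 in MII arrays, against 6.70, 7.61 and 7.04 in GV arrays, with overlapping groups. Its rise of 0.71 ± 0.26 (adjusted p = 0.048 by limma) was lost without GV replicate 1 (0.15), GV replicate 3 (0.11), MII replicate 2 (0.093) or MII replicate 3 (0.17), each an adjusted p.

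**Figure D4:**
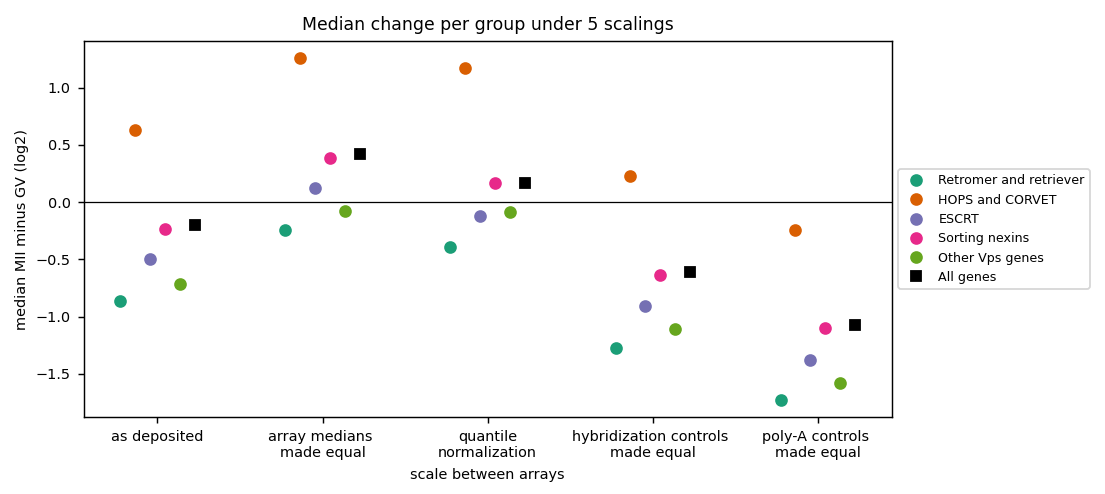
Median log2 difference, MII minus GV, of the genes in each of 5 groups (circles) and of all 11429 genes (squares) on the scale as deposited and under 4 other scalings. By the brightest probe sets, HOPS and CORVET with Vps33b lies above the all-gene median in each scaling, at 0.63 against -0.20 as deposited, though below 0 with poly-A controls made equal, and retromer with retriever lies below it, at -0.86.

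Different probe sets of one gene often gave different changes. Of the 71 genes, 34 had several probe sets, forming 53 pairs of the brightest with another. The changes differed in 24 pairs (45.3%), against 42.6% of 7649 such pairs over all genes, a share near the background. In 5 of the 34 genes (14.7%, against 10.8% of 4739 genes with several probe sets) probe sets were called in opposite directions, these being Pdcd6ip, Snx16, Vps33a, Vps37a and Vps9d1. The second Vps33a probe set had 3.29, 2.69 and 3.14 in MII arrays, against 4.67, 4.10 and 4.18 in GV arrays, and was lower at -1.28, below every array median. The widest gap with opposite calls was that of Vps9d1, whose probe sets differed by -3.60 ± 0.23 (adjusted p = 6.8e-06 by limma). Over all 124 probe sets, 17 were higher (13.7%, against 10.9% of all tested) and 53 lower (42.7%, against 34.1%).

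**Figure D5:**
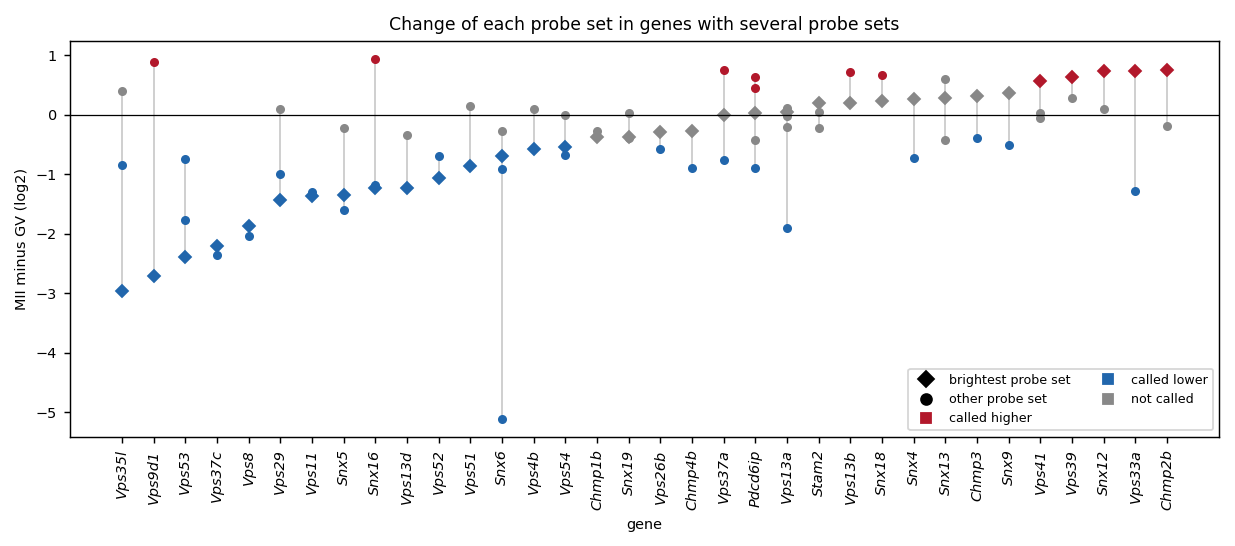
Log2 difference, MII minus GV, of every probe set of the 34 genes with several, ordered by the difference of the brightest (diamonds), with the others as circles and colours for the call. The probe sets of Snx6 range from -5.11 to -0.28, and those of Vps9d1 and Snx16 lie on both sides of 0.

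Other genes of the pathway lay outside the symbol rule. Of 58 measured, 27 were lower (46.6%, against 37.8% of all genes) and 6 higher (10.3%, against 10.5%), with a median of -0.38. In the phosphatidylinositol 3-kinase complexes, 4 of 5 genes were lower as deposited, Atg14 among them at -0.38. With array medians made equal and after quantile normalization, Uvrag, Pik3c3 and Pik3r4 stayed lower. Atg14 was not called in either (0.24 and 0.20), and Becn1 was higher in the first (0.60). Uvrag, a regulatory subunit, had 6.73, 7.22 and 6.82 in MII arrays, against 9.93, 9.48 and 9.18 in GV arrays, at -2.60 ± 0.21 (adjusted p = 3.6e-06 by limma). Pik3c3, the catalytic subunit, had 3.69, 3.38 and 3.96 in MII arrays, against 5.84, 6.0 and 5.97 in GV arrays, below the array medians at both stages and lower by at least 4.79-fold (-2.26 ± 0.17, adjusted p = 2.0e-06 by limma). Both were lower with no overlap, and the subunit Becn1 was not called as deposited, at -0.02.

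Of the 15 genes of the Rab5 and Rab7 cycle, which sets endosome identity, 6 were lower as deposited (37.8% of all genes). By limma 0 were higher (1 at an unadjusted p under 0.05). With array medians made equal, Mon1a and Vipas39 alone stayed lower. Rab5a, Rab5b, Eea1, Rabgef1, Rbsn, Mon1b, Ccz1 and Tgfbrap1 were then higher, in a scaling where 52.2% of all genes were. After quantile normalization Rab7 and Rabep2 were lower too, and Rab5b was not called. Mon1a, part of the exchange factor that switches Rab5 to Rab7, had 4.88, 4.75 and 4.73 in MII arrays, against 6.77, 7.23 and 6.68 in GV arrays, lower by at least 4.30-fold with no overlap and MII values below the array medians (-2.11 ± 0.17, adjusted p = 3.3e-06 by limma). Of 17 genes of the actin-nucleating WASH complex and the retriever-associated CCC complex, 10 were lower and 3 higher as deposited (37.8% and 10.5% of all genes). With array medians made equal, Washc1, Commd1, Commd4 and Commd7 alone stayed lower, and Washc2, Washc4, Washc5, Commd2 and Commd6 were higher. After quantile normalization these calls were the same, except that Commd6 was not called. The COMMD genes, which encode subunits of CCC and were counted apart after the values were seen, had 7 of 10 lower and 1 higher as deposited, and 3 of 10 lower (Commd1, Commd4 and Commd7) both with array medians made equal (22.5% of all genes) and after quantile normalization (24.5%). The gene called higher as deposited, Commd2, had 7.81, 8.03 and 8.03 in MII arrays, against 7.27, 7.45 and 7.06 in GV arrays (0.70 ± 0.15, adjusted p = 0.0037 by limma). Washc1, a WASH subunit, had 4.20, 3.57 and 3.77 in MII arrays, against 6.12, 5.64 and 5.81 in GV arrays, lower by at least 4.03-fold with no overlap and MII values below the array medians (-2.01 ± 0.19, adjusted p = 1.3e-05 by limma). Washc2 (0.66) and Washc5 (0.69), of the same complex, were higher, calls lost under both control scalings.

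The ESCRT partners outside the symbol rule had 4 of 13 lower and 2 higher as deposited (37.8% and 10.5% of all genes). With array medians made equal and after quantile normalization, Gga2 was no longer called lower. Stambp, Usp8, Vta1, Cep55 and Gga3 were then called higher as well. Mvb12b, an ESCRT-I subunit, had 9.27, 9.67 and 9.41 in MII arrays, against 8.80, 8.61 and 8.39 in GV arrays, higher at 0.85 ± 0.16 with no overlap (adjusted p = 0.0019 by limma), whereas its paralog Mvb12a was lower by at least 3.14-fold (-1.65 ± 0.22), with MII values below the array medians. The 5 cargo receptors measured had 1 rise and 1 fall. M6pr, the smaller mannose 6-phosphate receptor, had 6.90, 6.60 and 6.57 in MII arrays, against 5.92, 5.73 and 6.12 in GV arrays, higher at 0.77 ± 0.16 with no overlap (adjusted p = 0.0028 by limma). Igf2r, the larger receptor for the same tag, was lower by at least 3.03-fold (-1.60 ± 0.16, adjusted p = 1.4e-05 by limma), with MII values below the array medians. The rises of Mvb12b and M6pr were not called with poly-A controls made equal, while the falls of Mvb12a and Igf2r were.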

How the data were processed

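The authors deposited 1 table of log2 expression values for 6 arrays and 21702 probe sets, which the submitters' processing notes tie to RMA and the R package affy. No source used here gives the background correction, the filter or the genome build. Control features (56) were set aside, which left 21646 probe sets, none removed for low intensity. Symbols came from the array's annotation, and all 71 member identifiers were found in a RefSeq gene table used for names alone.

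The stages were compared with limma 3.58.1 under R 4.3.3, by moderated linear models with stage as the single term and 2-sided p-values. These were adjusted by the Benjamini-Hochberg method across the 21646 probe sets, and 0.05 was the threshold. Pairs of probe sets of 1 gene were tested as per-array differences over 7649 pairs. The 11 differences between partner genes, chosen after their values were seen, were fitted with these pairs and given with no test. The fits were tested on simulated data with known changes. The number of arrays limits the precision, and nothing says which animals gave which replicate.

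Alternatives were 4 scalings, a filter on dim probe sets, other variance settings, a replicate block, leaving out each array, and other probe sets per gene. The members, groups and lists were chosen with earlier results of these data known. Array values are given for the 3 largest called rises and falls of each group, for fixed core subunits, for genes with opposite calls, and for the 3 largest rises and 5 largest falls of the related genes. The labels give numbers 2 and 3 to 1 array of each stage. Deviations from the stage means correlated at 0.029 and 0.027 within these 2 pairs, so the numbers were not taken to pair the arrays.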

Additional observations from a re-analysis of the deposited data

How the results depend on the processing

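The scale between arrays moved more counts than any other setting run, and which scale is nearest to amounts per oocyte was not tested. With array medians made equal, 53 member probe sets were called higher and 30 lower, and 31 genes higher. By group, 2 retromer, 5 ESCRT, 14 nexin and 5 other Vps genes were then higher, and 6 ESCRT and 4 other Vps genes lower, with 25 related genes higher and 15 lower. After quantile normalization, 42 probe sets were higher and 33 lower, and 25 genes higher and 20 lower. That gave 2 retromer, 5 ESCRT, 9 nexin and 4 other Vps genes higher, 5 ESCRT and 4 other Vps genes lower, and 22 related genes higher and 17 lower. With hybridization controls made equal and with poly-A controls made equal, 0 probe sets or genes of any group, related genes included, were higher. Poly-A controls gave 104 probe sets and 60 genes lower, with 5 retromer, 20 ESCRT, 23 nexin and 52 related genes.

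Without moderation of the variance, 5 probe sets and 5 genes were higher, with 3 HOPS and CORVET, 0 ESCRT and 0 other Vps genes, and 14 pairs of probe sets differed. Above the median of all means, where fewer probe sets were tested, 32 probe sets, 1 HOPS and CORVET gene, 4 nexins and 11 related genes were lower, and 2 nexins and 1 other Vps gene higher. An intensity trend with a robust prior gave 2 nexins higher. The mean over the probe sets of a gene gave 3 HOPS and CORVET, 0 ESCRT and 2 nexin genes higher. The brightest probe set not marked as shared gave 0 retromer, 3 HOPS and CORVET, 2 ESCRT and 0 nexin genes higher.

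The fit with the label number as a replicate block, over 2 pairs of arrays, kept 69 of 71 genes on their side of the threshold. The block left 1 other Vps gene called higher, as Vps13c (0.45) and Stam (-0.45) lost their calls. Leaving out each array in turn gave 8 to 15 probe sets and 5 to 8 genes higher, with 3 to 4 HOPS and CORVET, 0 to 1 ESCRT, 1 to 2 nexin and 0 to 1 other Vps genes.

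Sign alone moved in every scaling: 47 members lay below 0 as deposited, 28 with array medians made equal and 32 after quantile normalization. With hybridization controls made equal 61 lay below 0, and with poly-A controls made equal 70. The genes listed here changed both sign and call, 22 of them with poly-A controls made equal. That scaling gave -0.68 for Stam2, -0.12 for Chmp2b, -0.57 for Chmp3, -0.70 for Chmp5, -0.86 for Pdcd6ip, -0.24 for Vps39, -0.32 for Vps41, -0.14 for Vps33a and -0.12 for Vps33b. It also gave -0.84 for Snx11, -0.14 for Snx12, -0.70 for Snx22, -0.59 for Snx13, -0.68 for Snx25, -0.65 for Snx18 and -0.61 for Snx4. For Vps72 it gave -0.17, for Vps13a -0.83, for Vps13b -0.68, for Vps13c -0.45, for Vps26c -0.30 and for Vps35 -0.52. With array medians made equal, the differences turned to 0.62 for Vps37a, 0.12 for Vps37b, 0.05 for Vps4b, 0.49 for Snx31, 0.59 for Snx10, 0.39 for Snx29, 0.42 for Snx2, 0.57 for Snx30, 0.39 for Snx33, 0.61 for Vps50 and 0.08 for Vps54. Quantile normalization turned Vps37a to 0.66, Vps37b to 0.17, Snx2 to 0.41, Vps50 to 0.46 and Vps54 to 0.12. The mean over probe sets turned Vps33a to -0.27 and Vps13a to -0.40, and the brightest probe set not marked as shared turned Chmp3 to -0.39 and Vps4b to 0.09. The cause of these reversals was not tested beyond the shifts themselves.

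Signal limits the rest. The values carry no measure of background, 14 member genes lay below the median of every array at both stages, and 8 of the genes called lower ended below the MII medians. For 23 genes the brightest probe set is of type _s_at, _x_at or _a_at, and 12 genes have no other kind. These types are marked as possibly shared with other transcripts, of the same gene or of others, and were not told apart here.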
